A study of Mus musculus with 2 samples.

Results

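The genes described here make the enzymes and carriers with which a cell neutralises oxidants, electrophiles and free metal ions by way of glutathione, thioredoxin and metallothionein. They were chosen by gene symbol: all alpha, kappa, mu, omega, pi, theta and zeta glutathione transferases, microsomal transferases, glutathione peroxidases, peroxiredoxins and thioredoxin reductases that the array annotation names. To these were added the thioredoxins, the glutathione-making enzymes, superoxide dismutases, catalase, sulfiredoxin, heme oxygenase 1, the quinone reductase Nqo1, both common metallothioneins and the regulator Nfe2l2. The rule gave 49 of 16444 named genes, each with 1 probe, and used no difference between the samples.

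Both samples were mouse embryonic stem cells differentiated on OP9, a mouse stromal line that favours blood formation, and then sorted for Flk-1, the surface receptor encoded by Kdr and a mark of early mesoderm. In the gene-trapped sample both alleles of AU019823 had been disrupted, and the revertant sample came from cells that the labels call almost wild type. The labels place both at day 4.5 and give RNA from 300000 gene-trapped and 350000 revertant cells. They also carry different codes, cl.3 and cl.4. Should the codes name clones, effects of clone and of genotype cannot be told apart here. There was 1 one-colour array per group, so each difference below compares 2 libraries, has no replicate check and comes without a p-value, and the number of arrays limits its precision.

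Glutathione is a small thiol made in steps by glutamate-cysteine ligase and glutathione synthetase, used by transferases and peroxidases, and restored by glutathione reductase. Thioredoxin and peroxiredoxins form a parallel chain that removes peroxides, again at the cost of NADPH. Metallothioneins are small cysteine-rich proteins that bind zinc and copper. Many of these genes are known targets of NRF2, the transcription factor encoded by Nfe2l2, while metallothionein genes answer to metals through the factor MTF1.

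Of the 49 members 46 were above background on both arrays, that is, more than 2 SD above the mean of blank spots. Differences are gene-trapped minus revertant in normalized log2 signal, so 1 stands for 2-fold. No member was at least 2-fold higher (0 of 46, against 0.334% of the 13753 named genes above background). The metallothionein gene Mt1 was the 1 member at least 2-fold lower, against 1.08% of all genes. At 1 of 46, that share is near the background. In the authors' deposited table the counts were the same, 0 higher (2.01% of the genes with a value there) and 1 lower (4.02%). With the scanner's local background column subtracted they were 2 higher, Prdx2 and Txnrd1 (2.02% of all genes), and 0 lower (1.35%). The other 45 members lay between -0.60 (the microsomal transferase gene Mgst1) and 0.60 (the peroxiredoxin gene Prdx1). The members' median was 0.02 and that of all genes 0.01, with 24 members above 0 (52.2%) against 53.3% of all genes. The central 90% of all genes lay between -0.47 and 0.43.

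**Figure D1:**
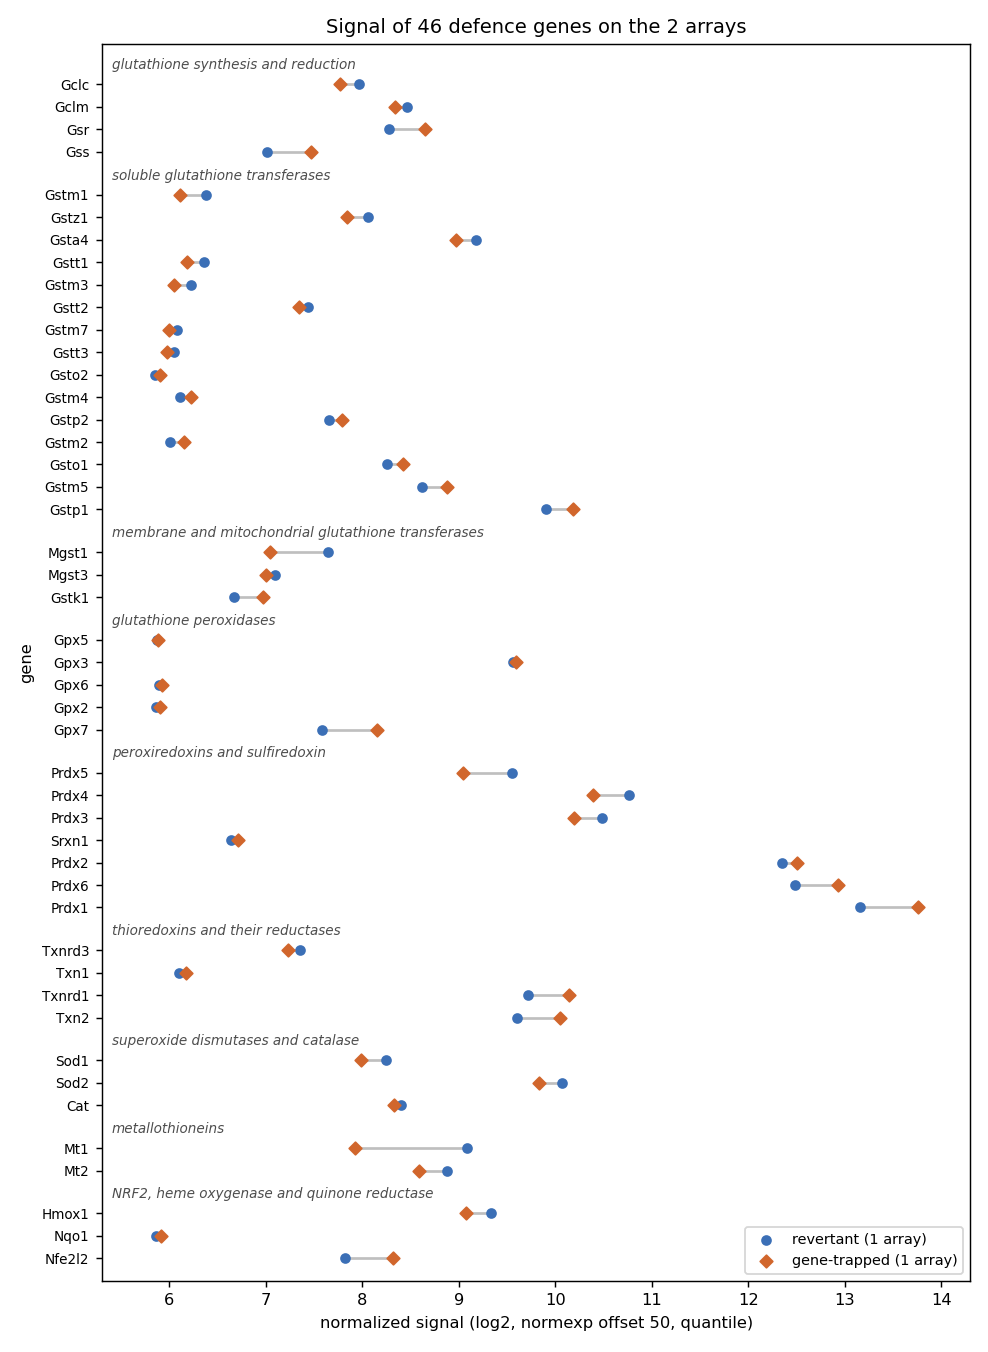
Normalized log2 signal (horizontal axis) of the 46 defence genes above background, grouped by role, on the revertant array (circles) and the gene-trapped array (diamonds), 1 array each, with a grey line joining the 2 values. Mt1 has the longest line, from 9.09 to 7.92; most other pairs nearly touch.

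The spread of single genes depends on their brightness, because the offset used in background correction draws dim genes towards 0. Among the dimmest quartile of genes above background the central 90% ran from -0.09 to 0.09, and among the brightest quartile from -0.78 to 0.62. Set against genes of its own brightness quartile, a comparison added after the values were seen, Gpx7 was the 1 member above the 95th percentile (5% of all genes lie there). Mt1 and Mgst1 were the 2 members below the 5th percentile (5% of all genes). Under every scaling, under offset 16, without background correction and with the mean of probes, Gpx7 stayed above and Mt1 and Mgst1 below. Gpx7 came inside without a filter, Mgst1 with the stricter filter and in the authors' table, and Mt1 with the local background subtracted. Other members joined them in single settings. Those above were Gpx1 and Gss without a filter, Gstm2 with the stricter filter, and Gpx6 and Prdx2 with the local background subtracted. Those below were Gstt3 under median and 75th percentile scaling, Gstm1 without a filter, Gstm3 with the stricter filter and Srxn1 with the local background subtracted. Percentiles of single members given further on are among all genes. For those in the brightest quartile the place within that quartile was less extreme. It was 94.4 for Prdx1, 90.5 for Nfe2l2, 88.6 for Txn2, 87.0 for Txnrd1 and 84.1 for Gsr. On the low side it was 22.2 for Hmox1, 19.9 for Mt2 and 1.83 for Mt1. As a technical yardstick, the log2 ratio of 24 spots of 1 positive control had an SD of 0.11 within the array pair. This is a spread between spots and not between cultures.

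**Figure D2:**
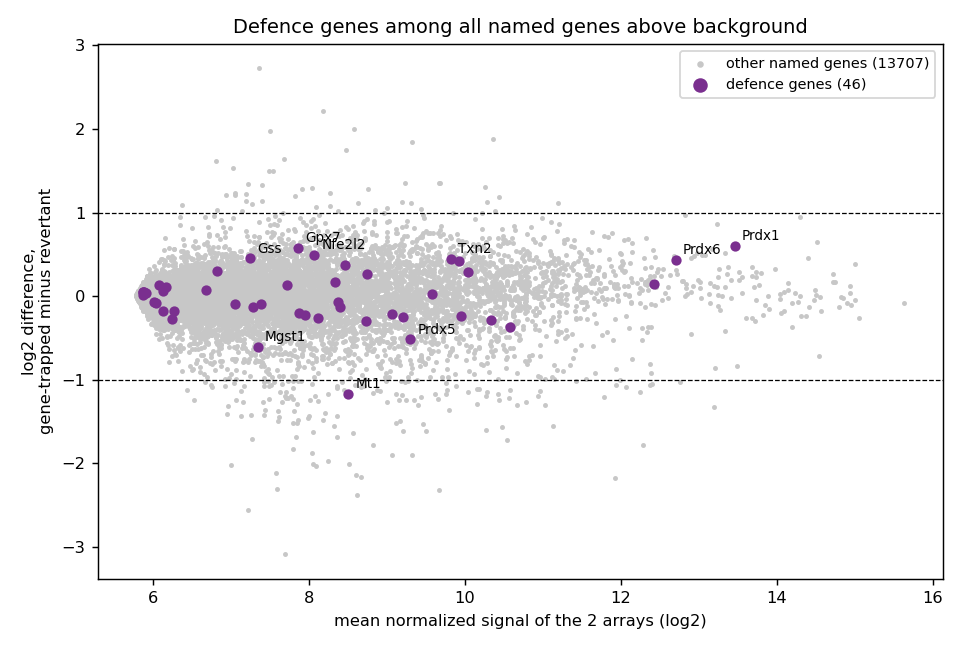
Difference in log2 signal (vertical axis) against mean log2 signal of both arrays (horizontal axis) for 13753 named genes above background; purple points are the 46 defence genes and dashed lines mark 2-fold. Mt1 at -1.17 is the 1 purple point beyond a dashed line.

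The cells' identity bears on what a bulk signal can show. All 7 markers of the mesoderm gate were above background, among them Kdr at 9.92 in revertant and 9.27 in gene-trapped cells and the mesoderm factor gene T at 7.17 and 7.93. The mesoderm list had a median of -0.0024, with Etv2 at 1.30, T at 0.76, Kdr at -0.65 and Mesp1 at 0.51. Etv2 was the 1 of these 7 at least 2-fold higher (0.334% of all genes). Markers of OP9 stroma and fibroblasts were measured for 13 of 14 genes, and their summed raw signal was 9806 (revertant) and 6148 (gene-trapped), with Dcn below background on both. Their median was -0.31, and 3 of 13 were at least 2-fold lower, against 1.08% of all genes. These were Col5a1 (-1.61), Col1a1 (-1.49) and Acta2 (-1.30), with Col3a1 next at -0.79. The other direction held 5 of 13, named after their values were seen: Fn1 (0.36), Cxcl12 (0.20), Twist1 (0.11), Lum (0.06) and Thy1 (0.02). Of 11 erythroid markers only 6 had a probe under the listed symbol, and 4 were measured, with a summed signal of 411 and 170. Their median was -0.55, and 1 of the 4, Epor, was at least 2-fold lower (1.08% of all genes). Epor had -1.08, Gata1 -0.77, Alas2 -0.33 and Klf1 -0.12, and Slc4a1 was below background on both arrays. With the local background subtracted they were nearer to 0: Epor -0.14, Gata1 -0.46, Alas2 -0.19 and Klf1 -0.02. The macrophage list had 4 of 8 genes measured, summed signals of 244 and 192 and a median of -0.02, with Emr1 and Ptprc below background. Its members were Laptm5 (-0.21), Cd68 (0.11), Fcgr3 (-0.06) and Csf1r (0.02). Endoderm and hepatoblast markers had 4 of 7 measured, summed signals of 159 and 109 and a median of -0.06, with Afp, Ttr and Apoa1 below background. Trf had -0.47, Sox17 -0.14, Foxa2 0.10 and Alb1 0.02. Of 7 pluripotency markers 5 had a probe under the listed symbol, all 5 measured, with a median of 0.07. At least 2-fold higher was 1 of the 5 (0.334% of all genes), Dppa5 at 1.21, which had -0.08 with the local background subtracted. Klf4 had -0.36, Zfp42 0.12 and Esrrb 0.07. These sums are raw, and the gene-trapped array was dimmer, with a median probe signal of 38.6 against 47.5. The stromal, erythroid, macrophage and endoderm sums were all lower there, as was that of the pluripotency list (1270 and 973). The mesoderm sum was higher, at 2851 in revertant and 3299 in gene-trapped cells. By normalized median the erythroid (-0.55) and stromal (-0.31) lists were the lowest of the marker lists, although single stromal markers went both ways. The part of these lists in the results below was not tested. In such bulk samples fewer cells of a type and less RNA per cell cannot be told apart. The disrupted gene AU019823 had 8.88 and 8.49, a difference of -0.39, and since the place of its probe relative to the trap is unknown, this does not check the labels.

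The metallothioneins held the largest difference of the set. Mt1 had a raw spot signal of 563 in revertant cells against 188 in gene-trapped cells, and normalized log2 signals of 9.09 and 7.92. It was thus 2.24-fold lower in gene-trapped cells (-1.17), at percentile 0.65 of all genes. Its neighbour in function, Mt2, encodes a closely related metal-binding protein. Mt2 had raw signals of 486 and 316 and log2 signals of 8.88 and 8.59, a difference of -0.29 at percentile 9.96. Set against Mt2, the Mt1 difference was -0.87. Over the scaling, offset and correction settings and the authors' deposited table, Mt1 ranged from -1.31 to -1.16 and Mt2 from -0.43 to -0.27. With the scanner's local background subtracted the values drew together, at -0.43 for Mt1 and -0.49 for Mt2, so the gap between them is not seen in that setting. Because the paralogs are alike in sequence and the probe sequences were not used here, cross-hybridisation between them was not tested.

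Promoter windows of this pair are shown because metal response elements in their promoters are the textbook route of their induction. Capitals mark matches to the core TGCACNC or TGCGCNC on either strand, in a RefSeq window from 250 bases before to 50 after the annotated start.
Mt1 (GRCm38.p6, chr8:94178839-94179138, plus strand): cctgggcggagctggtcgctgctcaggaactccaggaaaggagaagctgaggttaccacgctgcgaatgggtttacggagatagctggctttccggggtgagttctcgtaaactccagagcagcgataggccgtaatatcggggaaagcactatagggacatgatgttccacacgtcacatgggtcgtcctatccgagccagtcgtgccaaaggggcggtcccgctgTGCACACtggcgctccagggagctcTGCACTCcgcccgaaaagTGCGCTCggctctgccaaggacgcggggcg
Mt2 (GRCm38.p6, chr8:94172368-94172667, plus strand): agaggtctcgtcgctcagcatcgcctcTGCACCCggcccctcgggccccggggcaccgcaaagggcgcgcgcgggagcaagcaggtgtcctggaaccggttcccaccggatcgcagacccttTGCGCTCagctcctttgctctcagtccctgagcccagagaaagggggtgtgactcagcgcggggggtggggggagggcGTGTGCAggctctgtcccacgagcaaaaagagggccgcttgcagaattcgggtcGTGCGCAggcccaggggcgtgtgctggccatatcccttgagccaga
The script found 3 matches in the Mt1 window and 4 in the Mt2 window. Sites outside the windows were not counted, so these numbers do not compare the whole promoters. At least 1 match stood in the windows of 28.2% of 27025 genes, and 3 or more in 2.27%. A match of these letters is a description and does not show binding.

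Other genes of metal handling stayed within 2-fold in the main setting. Of 39 listed genes 32 were measured, with a median of 0.02. At least 2-fold apart in either direction were 0 of the 32, against 1.41% of all genes. The largest differences belonged to Slc30a9 (-0.89), the metal importer gene Slc39a8 (-0.80), the iron carrier gene Trf (-0.47) and the zinc transporter gene Slc30a5 (-0.42). Slc30a9 and Slc39a8 stood at percentiles 1.45 and 1.78 of all genes. With the local background subtracted Slc30a9 turned to 0.07 and Slc39a8 passed 2-fold at -1.07, and in the authors' table Trf had -1.77.

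The regulator gene and the best-known NRF2 targets did not share 1 direction. Nfe2l2 itself had log2 signals of 7.82 (revertant) and 8.31 (gene-trapped), 1.41-fold higher (0.50, percentile 96.3). Hmox1, which opens the heme ring and is an inducible NRF2 target, went the other way, with 9.33 and 9.08 (-0.25, percentile 11.7). Nqo1, a quinone reductase, lay close to background, with raw signals of 28.8 and 26.6 and a difference of 0.05. Thus 1 of these 3 genes was lower and none reached 2-fold. Over the settings other than local background, Nfe2l2 ranged from 0.35 to 0.64 and Hmox1 from -0.35 to -0.16. With the local background subtracted Nfe2l2 had -0.52.

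The wider NRF2 list held regulators of the factor and targets outside the symbol rule. Of its 30 genes 25 were measured, 10 of them above 0, with a median of -0.04. In it 0 were at least 2-fold higher (0.334% of all genes) and 0 lower (1.08%). Ugdh, which makes UDP-glucuronate, had -0.75 and the biliverdin reductase gene Blvrb -0.63. The small Maf factor gene Maff had 0.53, and Sqstm1, an autophagy receptor gene, -0.41. Keap1, whose product holds NRF2 in check, had 0.02, a value singled out after it was seen.

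Enzymes of glutathione synthesis split by step. Gclc and Gclm encode the catalytic and modifier subunits of glutamate-cysteine ligase, the first and rate-limiting step. Gclc had log2 signals of 7.97 (revertant) and 7.77 (gene-trapped) (-0.20), and Gclm 8.46 and 8.33 (-0.13). Gss, the synthetase of the second step, had 7.02 and 7.47, 1.37-fold higher (0.45, percentile 95.4). Gsr, the reductase that restores oxidised glutathione, had 8.27 and 8.65, 1.30-fold higher (0.38, percentile 93.2). Both ligase genes were therefore lower and both of the others higher, each by less than 2-fold. These 4 signs were kept under the scaling, offset and correction settings and in the authors' table, but with the local background subtracted Gclm turned to 0.38, and Gsr and Gss drew nearer to 0, at 0.06 and 0.15. The Gss difference lay 0.65 above that of Gclc.

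Supply and breakdown of glutathione contained larger differences than its synthesis. Of 32 listed genes 23 were measured, with a median of -0.01. At least 2-fold higher was 1 of them (0.334% of all genes) and 2 were lower (1.08%). Chac1, which degrades glutathione, had 8.70 in revertant and 6.88 in gene-trapped cells (-1.83). Cth, which releases cysteine from cystathionine, had 9.70 and 8.54 (-1.16). Mat2a, which makes S-adenosylmethionine, had 9.85 and 11.03 (1.19). Slc3a2, the heavy chain of amino acid exchangers, had -0.65. All 4 kept their sign with the local background subtracted.

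**Figure D3:**
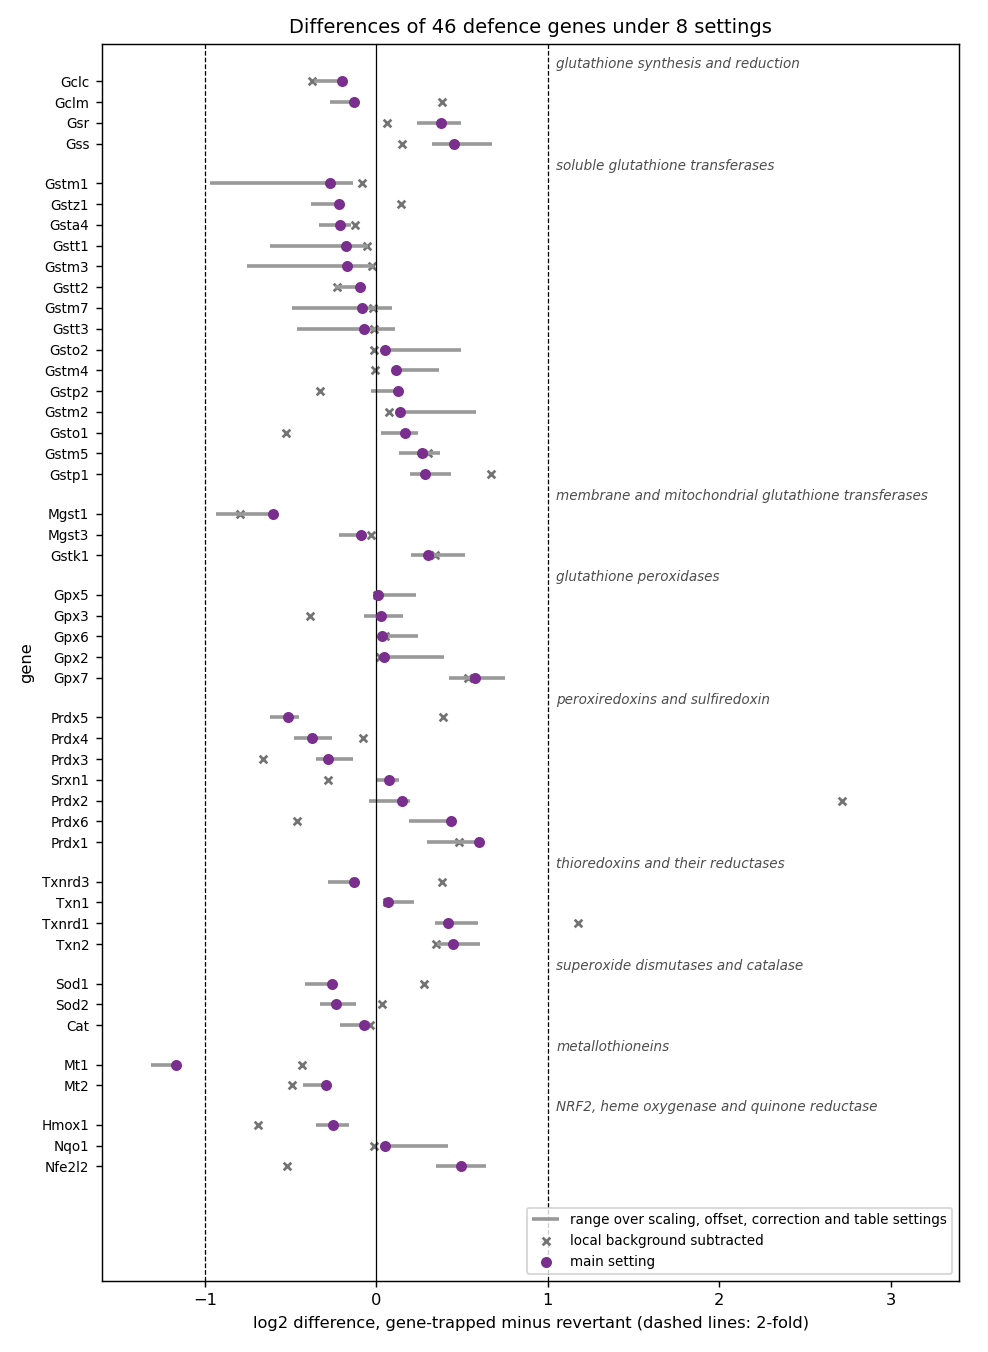
Log2 difference, gene-trapped minus revertant (horizontal axis), of the 46 defence genes by role; purple points are the main setting, grey bars the range over 7 settings including it, crosses the values with local background subtracted, dashed lines 2-fold. Mt1 alone has a purple point beyond a dashed line, and the crosses of Prdx2 (2.72) and Txnrd1 (1.18) lie far from their bars.

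Soluble glutathione transferases, which attach glutathione to electrophiles, differed in both directions, each within 2-fold. Of 17 genes 15 were measured, 7 above 0 and 8 below, from -0.27 (Gstm1) to 0.28 (Gstp1), with a median of -0.07. Gsta2 and Gsta3 were below background on both arrays, with raw signals of 23.1 and 20.1 for Gsta2 and 23.8 and 21.6 for Gsta3. Gstp1, the pi-class enzyme, had log2 signals of 9.90 and 10.18, and its near-copy Gstp2 7.66 and 7.79 (0.13). Gstm5 had 8.61 and 8.88 (0.27), whereas Gstm1 had 6.38 and 6.11, so mu-class members differed in sign. Gstm3 had -0.17 and Gstm7 -0.09, against 0.11 for Gstm4 and 0.14 for Gstm2. These probes are dim, and in the authors' table Gstm1 had -0.97, Gstm3 -0.75, Gstt1 -0.62, Gstm2 0.58 and Gstm7 -0.49. The theta-class genes Gstt1 (-0.18), Gstt2 (-0.09) and Gstt3 (-0.07) were all below 0. Gstt3 and Gstm7 turned above 0 under 75th percentile scaling, which puts the median of all genes at 0.15. Gsta4, which clears the lipid peroxidation product hydroxynonenal, had -0.21, and Gstz1, an enzyme of tyrosine breakdown, -0.22. The omega-class genes Gsto1 and Gsto2 had 0.17 and 0.05. With the local background subtracted Gsto1 had -0.53, Gstp2 -0.33, Gstz1 0.14, and Gsto2 and Gstm4 -0.01 each, so these signs were not kept. The other measured genes of the group kept their sign there, with Gstp1 at 0.67. Under median scaling Gstp2 had -0.03. Gstp and Gstm genes have close paralogs, so their probes may share signal, which was not tested.

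The transferases bound to membranes or placed in mitochondria included the second lowest difference of the set. Mgst1, a microsomal enzyme with peroxidase activity, had raw signals of 191 (revertant) and 88.1 (gene-trapped), and log2 signals of 7.65 and 7.04. It was 1.52-fold lower (-0.60, percentile 3.37), and between -0.94 and -0.60 over the settings other than local background, where it had -0.79. Mgst3 had 7.10 and 7.01 (-0.09). Gstk1, the mitochondrial and peroxisomal kappa enzyme, had 6.67 and 6.97 (0.30). The group thus held 1 gene above 0 and 2 below.

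Glutathione peroxidases reduce hydrogen and lipid peroxides with glutathione. Of 6 genes 5 were measured, all 5 above 0, but 4 of them by at most 0.05: Gpx2 (0.05), Gpx3 (0.03), Gpx5 (0.01) and Gpx6 (0.03). Gpx3, which is secreted, had log2 signals of 9.56 and 9.59, turning to -0.07 under median scaling and -0.39 with local background subtracted. Raw signals of Gpx2, Gpx5 and Gpx6 lay between 25.5 and 30.1, near the background limits of 25 (revertant) and 22.3 (gene-trapped). Gpx7, an endoplasmic reticulum peroxidase that feeds oxidative protein folding, had the largest value of the group, with 7.58 in revertant and 8.15 in gene-trapped cells, 1.49-fold higher (0.58, percentile 97.6). It ranged from 0.42 to 0.75 over the settings and had 0.53 with the local background subtracted. The Gpx1 probe was below background on both arrays, at 21.5 and 21.6, so Gpx1 was not measured.

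Peroxiredoxins, thiol peroxidases that thioredoxin recharges, went both ways, 3 above 0 and 3 below. Prdx1, mainly cytosolic, had log2 signals of 13.16 (revertant) and 13.76 (gene-trapped), 1.52-fold higher (0.60). That is percentile 97.9 of all genes and 94.4 of its brightness quartile. Prdx6, a cytosolic enzyme that uses glutathione, had 12.48 and 12.92 (0.44), and cytosolic Prdx2 12.35 and 12.50 (0.15). The mitochondrial Prdx3 had 10.48 and 10.20 (-0.28). Prdx4, the endoplasmic reticulum form, had 10.77 and 10.39 (-0.37), and Prdx5, found in mitochondria, peroxisomes and cytosol, 9.55 and 9.04 (-0.51, percentile 4.39). Each was within 2-fold. The 3 forms above 0 are cytosolic, whereas of those below 0 Prdx3 and Prdx4 are not and Prdx5 is in part. This pattern was noticed after the values were seen. The forms above 0 also have the brighter probes, and what goes with the sign was not tested. Cytosolic Sod1 (-0.26), mitochondrial Txn2 (0.45) and Gpx7 of the endoplasmic reticulum (0.58) do not share that pattern. Prdx1, Prdx3, Prdx4, Prdx5 and Prdx6 kept these signs under the scaling, offset and correction settings and in the authors' table. Their size varied: Prdx1 had 0.30 under median scaling, 0.43 under 75th percentile scaling and 0.45 with cyclic loess, and Prdx6 had 0.19 under median scaling. Prdx2 did not keep its sign, with -0.04 under median scaling. With the local background subtracted, Prdx6 had -0.46 and Prdx5 0.39, so those signs were not kept there. Prdx2 stayed above 0 in that setting, at 2.72. Srxn1, the sulfiredoxin that repairs overoxidised peroxiredoxins, had 6.64 and 6.71 (0.07), and -0.0028 under median scaling.

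Thioredoxins and their reductases supply the peroxiredoxins with electrons. Txn2, the mitochondrial thioredoxin, had 9.60 in revertant and 10.04 in gene-trapped cells, 1.36-fold higher (0.45, percentile 95.3). Txnrd1, the cytosolic selenoenzyme that reduces thioredoxin, had 9.72 and 10.13, 1.34-fold higher (0.42, percentile 94.6). Txnrd3, a related reductase, went the other way with 7.36 and 7.22 (-0.13). Txn1, the cytosolic thioredoxin, was measured by a dim probe, with raw signals of 40.8 and 36.4 and a difference of 0.07. So 3 of 4 genes were above 0 and 0 reached 2-fold in the main setting. With the local background subtracted Txnrd1 had 1.18 and Txnrd3 0.39.

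Windows of 3 members are shown because they hold the core of the antioxidant response element, the site NRF2 is known to use, while their differences ran both ways. Capitals mark matches to TGACNNNGC on either strand.
Prdx1 (GRCm38.p6, chr4:116685349-116685648, plus strand): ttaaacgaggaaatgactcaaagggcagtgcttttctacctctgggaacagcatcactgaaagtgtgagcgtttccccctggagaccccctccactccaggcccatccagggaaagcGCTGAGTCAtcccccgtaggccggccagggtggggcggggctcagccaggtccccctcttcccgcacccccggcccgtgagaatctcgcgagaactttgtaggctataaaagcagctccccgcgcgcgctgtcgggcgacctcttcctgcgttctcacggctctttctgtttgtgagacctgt
Txnrd1 (GRCm38.p6, chr10:82858956-82859255, plus strand): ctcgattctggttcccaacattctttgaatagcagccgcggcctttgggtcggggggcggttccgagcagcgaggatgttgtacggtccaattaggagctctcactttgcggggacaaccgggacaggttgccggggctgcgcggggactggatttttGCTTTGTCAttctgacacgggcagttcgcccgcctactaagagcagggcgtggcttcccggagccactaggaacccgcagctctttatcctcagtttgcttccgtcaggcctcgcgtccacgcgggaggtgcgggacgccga
Mgst1 (GRCm38.p6, chr6:138140277-138140576, plus strand): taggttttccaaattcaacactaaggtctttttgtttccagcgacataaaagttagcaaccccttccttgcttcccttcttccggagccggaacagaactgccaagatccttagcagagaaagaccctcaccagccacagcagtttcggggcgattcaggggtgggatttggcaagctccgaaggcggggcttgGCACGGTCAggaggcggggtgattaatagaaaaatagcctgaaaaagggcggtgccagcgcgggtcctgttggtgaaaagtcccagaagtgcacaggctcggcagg
RefSeq windows matched 43 of the 49 symbols, and 11 of the 43 held the core (25.6%), against 14.0% of 27025 genes. Txnrd1 has 3 windows and Mgst1 has 2, and for each the printed one is that with the match. Of the 10 measured members with a match 5 were above 0 (Gstm5, Nfe2l2, Prdx1, Srxn1 and Txnrd1) and 5 below (Gclm, Gstm7, Mgst1, Mt2 and Sod1). Of the 30 measured members whose windows held none, 17 were above 0 and 13 below. For the metal response core the numbers were 15 of 43 members (34.9%, against 28.2% of all genes), and 7 above 0 and 7 below among the 14 measured. A window without a match says only that the letters are not in it.

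Superoxide dismutases and catalase, the enzymes that turn superoxide into hydrogen peroxide and hydrogen peroxide into water, were lower in gene-trapped cells by small amounts. Cytosolic Sod1 had log2 signals of 8.24 and 7.99 (-0.26), mitochondrial Sod2 10.07 and 9.83 (-0.24), and peroxisomal Cat 8.40 and 8.33 (-0.07). All 3 stayed below 0 under the scaling, offset and correction settings and in the authors' table. With the local background subtracted Sod1 had 0.28 and Sod2 0.03. The Cat difference was smaller than the SD between spots of the positive control.

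Thioredoxin-fold and other redox enzymes outside the rule had a lower median than the members (0.02), a gap that was not tested. Their median was -0.25 over 25 measured of 38, with 10 above 0 and 15 below. At least 2-fold higher were 0 (0.334% of all genes), and 4 were at least 2-fold lower (1.08%). These were Ero1l (-2.0), the oxidase that drives disulfide formation in the endoplasmic reticulum, and the disulfide isomerase genes Txndc4 (-1.24), Pdia4 (-1.24) and Pdia6 (-1.05). Ero1l had -0.30, short of 2-fold, and Pdia6 -4.19 with the local background subtracted. Prdx4 and Gpx7, which take up peroxide made by that oxidase, stood at -0.37 and 0.58. The highest values of the list, singled out after they were seen, belonged to Txnl4 (0.66), Nxn (0.52) and Txnip, which binds thioredoxin (0.41).

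A list of genes of NADPH supply and use had a median of -0.10 over 17 measured of 20. In it 1 gene was at least 2-fold higher (0.334% of all genes) and 1 lower (1.08%). Dcxr, a carbonyl reductase that consumes NADPH rather than supplying it, had 2.22, and the mitochondrial folate enzyme gene Mthfd2 -1.21. Idh2, a mitochondrial NADPH source, had -0.65, and Nnt, the mitochondrial transhydrogenase gene, -0.46. A list of genes linked to p53 and redox control had a median of 0.39 over 10 measured of 14. In it 4 were at least 2-fold higher (0.334% of all genes) and 0 lower (1.08%). The 4 were Ccng1 (1.85), Phlda3 (1.74), Cdkn1a (1.5) and Trp53inp1 (1.19). Ccng1, Phlda3 and Cdkn1a are known as p53 targets of growth and survival control and are not antioxidant enzymes. Cdkn1a (0.59) and Trp53inp1 (0.71) were short of 2-fold with the local background subtracted. The sestrin genes Sesn1, Sesn2 and Sesn3, whose products act in redox control, had -0.09, 0.14 and -0.02, and Ddit4 and Aldh4a1 -0.02 and 0.20, values singled out after they were seen. Mdm2, the remaining gene of the 10, had 0.59, and 0.40 with the local background subtracted.

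**Figure D4:**
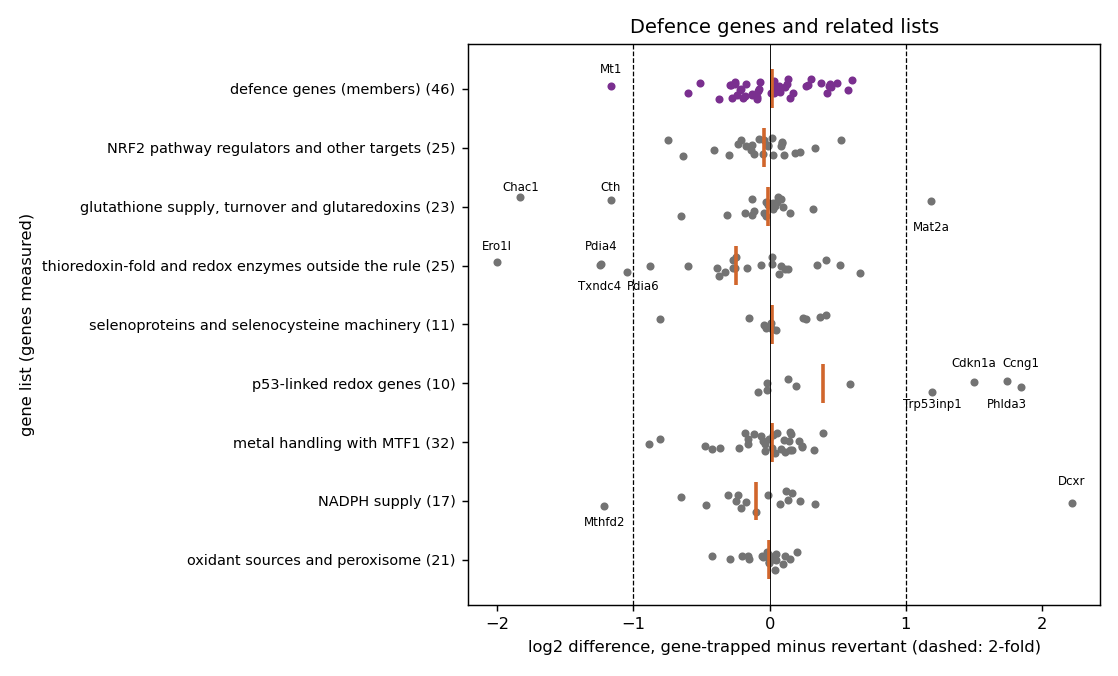
Log2 difference (horizontal axis) of each measured gene in the defence set (purple) and in 8 related lists (grey), with the median of each list as an orange line and genes at or beyond 2-fold named. The defence set is centred at 0.02 with Mt1 alone beyond 2-fold, whereas the list of thioredoxin-fold enzymes has its median at -0.25 and the p53-linked list at 0.39.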

How the data were processed

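Linear spot intensity at 635 nm (Cy5, median over the spot) was deposited for 1 TORAY array per group; per the file headers it joins scans at 3 gains by least squares. RNA had been amplified with an amino allyl kit, per the labels' protocols. The authors also deposited processed intensity values, which follow the spot signal minus about the blank mean, divided by 1 constant per array, with column medians of 25. Its unit is otherwise not given in the sources used here. Median probe signals were 47.5 (revertant) and 38.6 (gene-trapped).

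Intensities were corrected by normexp (offset 50) without the local background column, quantile-normalized and put on the log2 scale with limma 3.58.1 (R 4.3.3), and summarised with Python 3.11.15 and pandas 2.3.3. Dim genes show smaller differences because of the offset. Background limits were the blank mean plus 2 SD. The normalization was tested on simulated arrays in which only probes brighter than the median were changed, each by more than 2-fold. That simulation does not cover dim probes or smaller differences. Blank, control and flagged spots entered the fit of the background correction and were left out before quantile normalization. The platform annotation names 16629 of 23471 probes with 1 symbol and 6842 with none; the brightest probe by mean raw signal stood for a gene. All 49 members have a current RefSeq symbol (GRCm38.p6). Every member was described; of related lists, up to 4 measured genes with the largest differences. Members, lists and the 10 alternatives were chosen with earlier results of these data known. Nothing was tested, since each group has 1 array.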

Additional observations from a re-analysis of the deposited data

Results flagged for a closer look

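The column of local background around each spot stayed out of the comparison, yet it carried signal above that of blank spots. At the 46 member spots its median was 129 (revertant) and 91.5 (gene-trapped), whereas around blank spots it was 14.2 and 15.6. At some members it came close to the spot itself: at Prdx2 it was 5736 beside a spot signal of 5776 in the revertant sample, and 4395 beside 5097 in the gene-trapped one. At Mt1 it was 490 beside 563, and 153 beside 188. At Txnrd1 it was 918 beside 878, and 920 beside 1012.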

How the results depend on the processing

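No paired analysis was possible because there was a single array on each side. Mt1 was the 1 member at least 2-fold lower, and 0 were higher, under cyclic loess, median and 75th percentile scaling, offset 16, no background correction, no filter, a stricter filter (5 SD), the mean of probes and the authors' table. With the local background subtracted 2 members were higher (Prdx2 and Txnrd1; 2.02% of all genes) and 0 lower (1.35%), and 15 of 46 members changed sign; the cause was not tested. The members' median ran from -0.07 (stricter filter) to 0.10 (75th percentile scaling). The median of all genes was 0.15 under 75th percentile scaling. Signs changed in 4 members under median scaling (Gpx3, Gstp2, Prdx2 and Srxn1) and 2 under 75th percentile scaling, where 73.0% of all genes lay above 0 against 53.3%. Of all genes, 87 were at least 2-fold higher and 238 lower with offset 16, 84 and 227 without background correction, and 285 and 571 in the authors' table, which subtracts the blank level without an offset; 278 were higher with the local background subtracted. The main counts were 46 and 148. A smaller offset widens differences of dim genes by construction. In the authors' table Mt1 had -1.31. Low signal limits the 3 members that were below background and those near it.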

Other observations

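Thioredoxin reductases and several glutathione peroxidases depend on the machinery that inserts selenocysteine. Selenoproteins and that machinery had a median of 0.02 over 11 measured of 26 listed genes. At least 2-fold apart in either direction were 0 of the 11, against 1.41% of all genes. Selk, a selenoprotein of the endoplasmic reticulum membrane, had log2 signals of 11.19 (revertant) and 10.39 (gene-trapped) (-0.80). Next in size in that list were the elongation factor gene Eefsec (0.41), the selenophosphate synthetase gene Sephs2 (0.37) and its paralog Sephs1 (0.27). Dio2 was below background on both arrays.

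Genes of oxidant production and of the peroxisome had a median of -0.01 over 21 measured of 38. At least 2-fold apart were 0 of the 21, against 1.41% of all genes. The peroxisome biogenesis genes Pex19, Pex7 and Pex16 had -0.42, -0.29 and -0.20, and Cyba, a subunit of the superoxide-producing NADPH oxidase, had 0.20. Nox1 and Nox4, catalytic subunits of that oxidase family, were below background on both arrays.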
